A study of Mus musculus with 4 samples.

Results

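Solitary peaks are the sites in an eIF4A3 binding map that have no other listed peak near them. The members were chosen by their positions in the list: a peak was counted as solitary when the next peak on either side, on the same chromosome and strand, lay more than 10 kb (10000 nt) away. Of the 30763 peaks in the list, 2655 (8.63%) met this rule and 28108 did not. The rule uses starts and ends, so the number and the spacing of the members describe the choice and are no finding.

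The map comes from enhanced crosslinking and immunoprecipitation (eCLIP), in which ultraviolet light links a protein to the RNA it touches, an antibody recovers the protein, and the attached RNA fragments are sequenced beside an input that skips the antibody. All 4 libraries came from 1 established cell line, the mouse embryonic stem cell line J1 of strain 129S4/SvJae and kept feeder-free in medium with serum and leukemia inhibitory factor (LIF), which maintains self-renewal. The cells received 400 mJ/cm2 of light at 254 nm. The groups were 2 input libraries, labelled with no antibody, and 2 libraries recovered with an antibody to eIF4A3. The labels call the 2 replicates of each group biological.

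eIF4A3 belongs to the DEAD-box helicases and is the subunit with which the exon junction complex grips RNA. Splicing leaves this complex on messenger RNA shortly upstream of an exon junction, and it stays there until the first round of translation removes it. A transcript with many introns can therefore carry many of these complexes along its length, whereas one with few introns can carry only few. The list holds no gene names, so the transcripts under the solitary peaks are not reported here.

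The deposited list gives each peak 1 log2 fold change and 1 −log10 p, both the authors' values. It gives no value per library and no read number, so the spread between replicates and the depth are unknown for every peak. Peaks of a cluster may share a transcript, so they cannot be taken as independent, and no test was run on the comparisons below. They describe this 1 list, whose positions are on the mouse build mm9. The numbers in the peak names reach 144404, so peaks that are not listed may lie beside a peak counted here as solitary.

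Solitary peaks were the wider class. In the median they were 55 nt wide (quartiles 38 and 73 nt), against 30 nt (quartiles 15 and 49 nt) for all other peaks. Widths of 50 nt or more made up 60.3% of solitary peaks and 24.5% of the others. At 100 nt or more the shares were 7.65% (203 peaks) and 1.42% (398 peaks). Of the 601 peaks in the list at least 100 nt wide, 203 were thus solitary. At the narrow end, 96 solitary peaks (3.62%) and 4593 others (16.3%) were at most 10 nt wide. The narrowest solitary peak covered 1 nt, position 36911811 of chromosome 1 on the minus strand, with a fold change of 4.93.

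**Figure D1:**
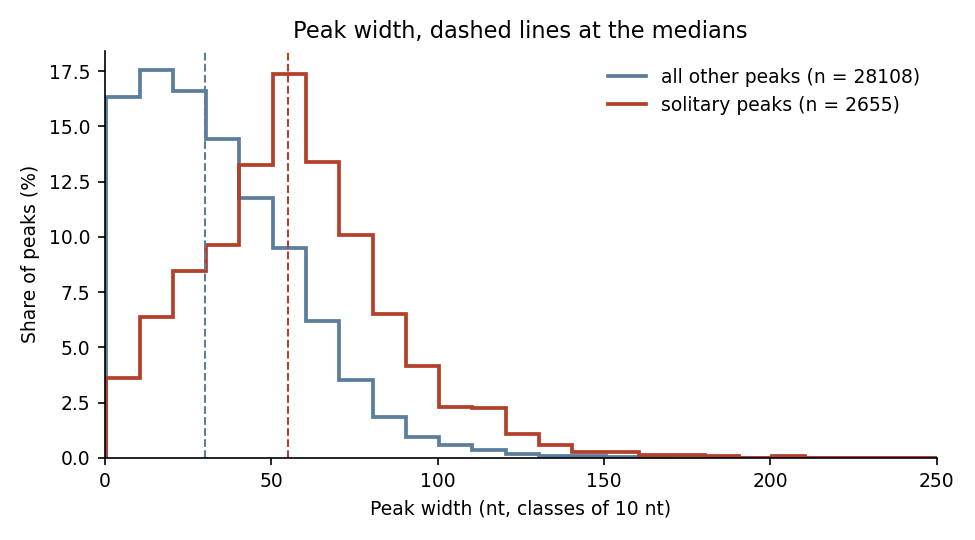
Share of peaks (y axis, percent) in width classes of 10 nt (x axis, nt) for the 2655 solitary peaks (red) and the 28108 others (blue), with dashed lines at the medians of 55 and 30 nt. The solitary peaks have a single hump at 51 to 60 nt, whereas most of the others lie below 50 nt.

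The rule bears on width in one way, since a site listed as several adjoining peaks cannot hold a solitary one. Of the other peaks, 13348 had no neighbour within 50 nt, and their median width was 35 nt. That is 5 nt above the median of all other peaks, beside 55 nt for solitary peaks. With peaks within 50 nt merged, the median was 59 nt for sites with no other within 10 kb and 43 nt for the other sites. How much of the difference in width comes from such splitting was not tested. Each cluster was then counted once. Over the 3915 clusters of 2 or more peaks, the median of the cluster medians was 35 nt. When each cluster was represented by its peak of lowest p, the median width was 56 nt, beside 55 nt for solitary peaks. Choosing the lowest p also favours wide peaks, since width and −log10 p were positively related in every class examined, so this is no measure of likeness.

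The p-values of solitary peaks were weaker. Their −log10 p had a median of 6.95 (quartiles 5.78 and 9.34), against 10.8 (quartiles 7.56 and 16.8) for all other peaks. The list starts at 5.01, and 817 solitary peaks (30.8%) lay below 6, against 9.43% of the others. At 20 or more there were 102 solitary peaks (3.84%) and 5088 others (18.1%). None of the 89 peaks at the list's highest value of 400 was solitary, and the highest solitary value was 81.6. Another 156 peaks share a −log10 p of 15.7, the value of 2.2e-16, and 3 of them were solitary, with p possibly given only as a limit.

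The difference in p was seen at every width, and that in width at every p. Among solitary peaks, wider peaks had higher −log10 p, with a Spearman correlation of 0.342 over 2655 peaks. The correlation was 0.356 over the 2302 peaks of 2-peak clusters, 0.227 over the 16392 in clusters of 10 or more, and 0.152 over all other peaks pooled. In each of 10 width classes the solitary median of −log10 p was the lower one. In peaks of 51 to 60 nt it was 6.61 for 461 solitary peaks and 11.4 for 2668 others. In those of 100 nt or more it was 10.6 and 18.9, and in those of at most 10 nt it was 6.26 and 10.1. Likewise, solitary peaks were the wider ones in each of 7 classes of −log10 p. Their median width was 47 against 25 nt between 5 and 6, 67 against 31 nt between 10 and 15, and 86 against 37 nt at 20 or more. The solitary share of peaks was 23.6% between 5 and 6 and 1.97% at 20 or more.

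The fold change separated the classes far less. Its median was 6.22-fold for solitary peaks (log2 of 2.64, quartiles 2.29 and 3.13) and 6.61-fold for the others (log2 of 2.73, quartiles 2.38 and 3.14). The quartile ranges overlapped almost entirely. The list starts at a log2 fold change of 2.00, so the classes are compared only above that value. How they differ below it cannot be seen. Of the whole list, 32.3% of peaks reached 8-fold with p at most 0.001. Among solitary peaks it was 834 of 2655 (31.4%), which is at the background share and no feature of the class. At 16-fold with p at most 1e-05 the background was 3.65%, and 130 solitary peaks (4.90%, Wilson 95% interval 4.14 to 5.78%) passed. Every listed peak met both limits of p, so these shares depend on the fold change alone. The solitary fold changes thus reached a little farther up while their median lay a little lower. Their 95th percentile was 15.6-fold, beside 14.4-fold for the others, although their highest value of 44.4-fold was below the 75.6-fold reached elsewhere.

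The solitary share at 8-fold showed no trend with p, between 26.4% and 41.3% in 7 classes of −log10 p, while that of the others was higher in each class than in the one before. The order of solitary and other peaks therefore turned. Below a −log10 p of 7 the solitary share was the larger, with 27.3% against 15.2% between 5 and 6 and 41.3% against 24.1% between 6 and 7. From 15 up it was the smaller, with 26.4% against 38.2% between 15 and 20 and 32.4% against 46.1% at 20 or more. Among the others the fold change and −log10 p were weakly related, with a Spearman correlation of 0.227 over 28108 peaks, and among solitary peaks the correlation was -0.025 over 2655. The 2302 peaks of 2-peak clusters were close to the solitary ones in this, with a correlation of 0.053. The list is cut from below in both values, at a log2 fold change of 2.00 and a −log10 p of 5.01. Near the limit of p the classes are unequal, with 30.8% of solitary peaks and 9.43% of the others below 6. How far these limits shape the shares and correlations was not tested. Narrow solitary peaks also held the higher fold changes. Of the 169 that were 11 to 20 nt wide, 46.2% reached 8-fold, and of the 203 that were at least 100 nt wide, 13.8% did. For other peaks the same shares were 36.6% and 18.6%.

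The fold changes of solitary peaks were stepped, and so were their p-values. Many fold changes were whole multiples of 1.00858, to within 0.001 of a whole number. This held for 524 solitary peaks (19.7%) and for 3358 others (11.9%), and with multiples of 0.5 included for 28.6% and 17.5%. The 2655 solitary peaks carried 834 distinct combinations of fold change and p, and the 28108 others 5399. The most frequent, 8.74-fold with a −log10 p of 5.11, was given to 33 solitary peaks on 16 chromosomes with widths from 12 to 84 nt. It made up 1.24% of solitary peaks and 0.206% of the others. Next came 7.31-fold with 5.24, given to 31 solitary peaks, and 9.08-fold with 5.37, given to 30.

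Plotted against each other, the 2 values fell on a fan of lines. The outermost line was defined as the lowest −log10 p found at each whole multiple of the step from 21 up. A multiple was left out where a higher one had a lower −log10 p. That the line's fold changes are whole multiples, each with 1 p, is thus set by this definition, and so is the start at 21. Solitary peaks on this line ran from the multiple 21 (21.2-fold, −log10 p 5.28) to 44 (44.4-fold, 12.0). It held 84 solitary peaks (3.16%) and 187 others (0.665%). A ratio of read numbers gives whole multiples of a constant when its denominator is 1 read. The read numbers are not in the list, so whether the solitary peaks on this line had 1 input read was not tested.

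**Figure D2:**
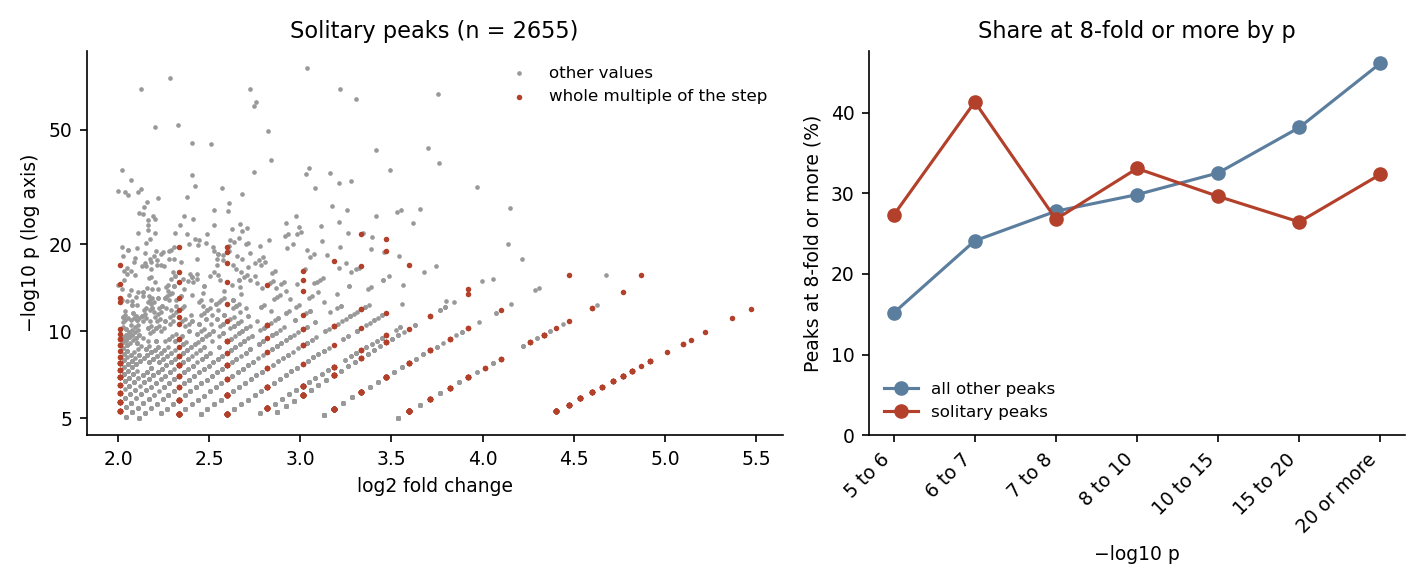
Left, log2 fold change (x axis) against −log10 p (y axis, log scale) of the 2655 solitary peaks, with fold changes at whole multiples of 1.00858 in red and the rest in grey. Right, share of peaks at 8-fold or more (y axis, percent) in classes of −log10 p (x axis) for solitary peaks (red) and all others (blue). The points lie on lines, and the solitary share is the higher one at the lowest p classes (27.3% against 15.2%) and the lower one at the highest (32.4% against 46.1%).

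All 10 solitary peaks with the highest fold change lay on that outermost line, at multiples of 44, 41, 37, 35, 34, 34, 32, 30, 30 and 30. First was a plus-strand peak of 7 nt at chr6:33788976-33788982, with a fold change of 44.4 and a −log10 p of 12.0. Its neighbours lay 23165 nt to the 5′ side and 1338668 nt to the 3′ side. Second came 14 nt of the plus strand, chr13:18955904-18955917, at 41.4-fold. Next were 67 nt of the plus strand, chr2:160719754-160719820, at 37.3-fold. The remaining 7 measured from 30.3-fold to 35.3-fold and lay on chromosomes 1, 9, 11, 12, 17 and 19. One of these, chr19:5757769-5757831 on the plus strand, lay close to the limit of the rule, with a neighbour 10762 nt away. Widths in this group ran from 7 to 76 nt. The step was fitted to fold changes of at least 32, 7 of them in solitary peaks. The whole multiples of those 7 are thus no separate finding.

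The peaks with the highest −log10 p were others, and all 5 were broad. The highest value, 81.6, belonged to a plus-strand peak of 113 nt at chr6:33199126-33199238, with a fold change of 8.19. After it came 81 nt of the minus strand, chr10:62295641-62295721, with 75.4 and 4.88-fold. The widest solitary peak of all, 209 nt of the minus strand at chr2:38142634-38142842, followed with 69.3 and 9.31-fold. The remaining pair lay on the plus strand. They were chr1:133807203-133807331, 129 nt wide, with 69.3 and 4.37-fold, and chr9:21172449-21172533, 85 nt wide, with 69.0 and 6.60-fold. None of these 5 fold changes was a whole multiple of the step. The other members of the 5 widest measured 177 to 203 nt on chromosomes 1, 3, 6 and 19, with −log10 p from 9.82 to 19.6 and fold changes from 5.13 to 10.2.

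Solitude was a matter of degree. The nearest peak on the strand lay 33600 nt away in the median (quartiles 16870 and 126031 nt), and 152 solitary peaks had none within 1 Mb. Just inside the 10 kb limit were peaks at 10009 nt (chromosome 9, 8.07-fold, and chromosome 17, 4.97-fold) and 10017 nt (chromosome 19, 6.27-fold). Just outside it were peaks at 9996 nt (chromosome 18, 9.92-fold), 9994 nt (chromosome 15, 10.1-fold) and 9977 nt (chromosome 2, 5.25-fold), which belonged to clusters of 5, 17 and 2 peaks. The 5 most remote peaks were 54 to 112 nt wide. The most remote, 95 nt of the minus strand at chr16:78376711-78376805, had its nearest neighbour 9023462 nt away and a fold change of 4.65 with a −log10 p of 7.23. Another on this chromosome, chr16:59471707-59471818 on the plus strand, stood 7335717 nt from its nearest at 4.77-fold. The other 3 were on chromosomes 6, 10 and 5, at 4.93-fold, 4.48-fold and 14.1-fold.

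Within the class, more remote peaks were wider. The median width was 48 nt in the 826 peaks with a neighbour 10 to 20 kb away, 55 nt in the 750 at 20 to 50 kb, 58 nt in the 333 at 50 to 100 kb and 65 nt in the 152 beyond 1 Mb. Between 200 and 1000 kb the order was uneven, with 65 and then 60 nt. The step from each class to the next was small beside the quartiles, which were 31 and 65 nt in the nearest class and 51 and 86 nt in the farthest. The median −log10 p was 7.42 in the nearest class and between 6.41 and 7.03 in the other 6. Peaks at 8-fold or more made up 29.2% of the nearest class and 42.1% of the farthest, where 64 of 152 passed. In the 5 classes between them the share stayed between 30.3% and 32.5%.

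**Figure D3:**
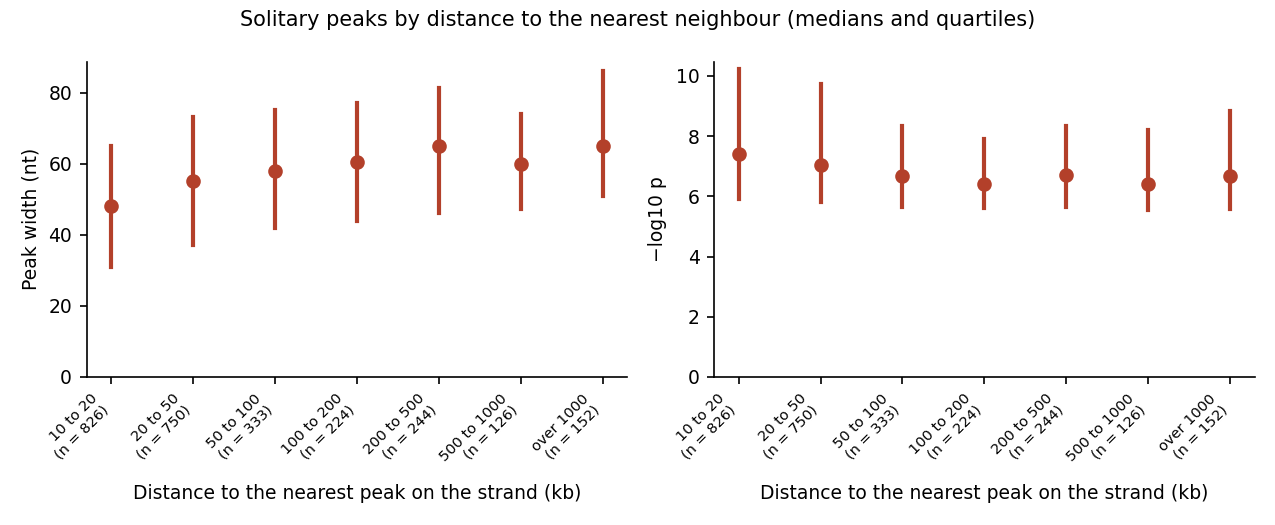
Width in nt (left, y axis) and −log10 p (right, y axis) of solitary peaks by distance to the nearest peak on the same strand (x axis, kb), with points at the medians, bars from the lower to the upper quartile and the number of peaks under each class. Median width is 48 nt in the nearest class and 65 nt in the farthest, with wide overlap of the bars, and median −log10 p is 7.42 and 6.66.

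The width and p of solitary peaks were the end of a gradient over cluster size, for which peaks within 10 kb on a strand were joined. Median width was 55 nt for solitary peaks, 45 nt in clusters of 2, 39 nt in those of 3 to 4, 33 nt in those of 5 to 9 and 23 nt in those of 50 or more. The median −log10 p ran the other way, at 6.95, 7.74, 8.18, 9.09 and 20.6 in the same classes. Median log2 fold change stayed between 2.64 and 2.75 up to clusters of 49 and was 2.97 in those of 50 or more. The share of whole multiples was 19.7%, 16.6% and 14.8% in the 3 smallest classes and 8.39% in the largest. In these medians and in the share of whole multiples, solitary peaks followed the order of the classes. The share at 16-fold did not, at 4.90% for solitary peaks, 3.09% to 3.87% in the 5 classes from 2 to 49 peaks, and 5.79% in clusters of 50 or more.

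**Figure D4:**
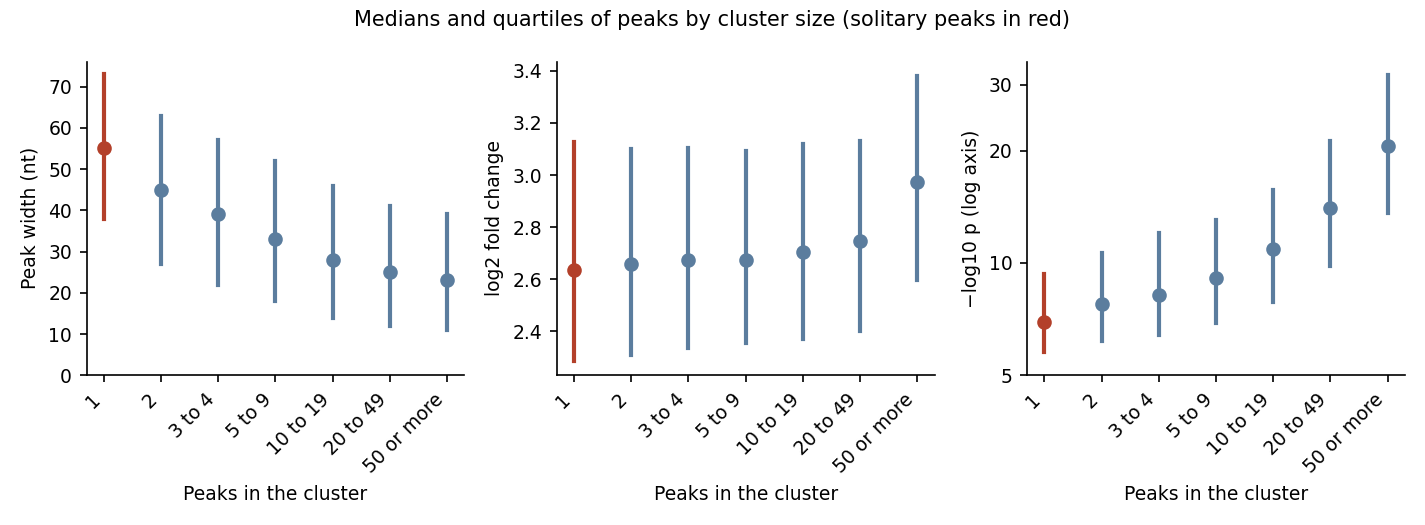
Peak width in nt, log2 fold change and −log10 p (log axis) on the y axes, against the number of peaks in the cluster (x axes), with points at the medians and bars from the lower to the upper quartile. Solitary peaks (red) have the highest median width, 55 nt, and the lowest median −log10 p, 6.95, and their fold changes overlap those of the other classes.

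The class most like solitary peaks in setting is the lone site cut into several peaks. Joining peaks within 50 nt gave 3171 sites with no other within 10 kb, of which 2655 were the solitary peaks and 516 held 2 to 7 peaks each, 1232 peaks in all. These 516 sites were 105 nt wide in the median. The median over sites of their highest log2 fold change was 2.89 and of their highest −log10 p 12.0, and 41.1% had a peak at 8-fold or more. The highest of several values is taken here, which by itself raises these figures over the single value of a solitary peak. Of the 1151 clusters of 2 peaks, 380 (33.0%) were such a lone site.

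Other solitary peaks were common neighbours. For 1154 solitary peaks (43.5%) the nearest peak on the strand was itself solitary, for 1204 (45.3%) it belonged to a cluster of 2 to 9, and for 297 (11.2%) to one of 10 or more. Over all 6570 clusters, solitary peaks among them, these kinds made up 40.4%, 47.5% and 12.1%, so the neighbours were close to the list's own mix. The nearer neighbour lay on the 5′ side in 1244 of 2612 peaks with neighbours on both sides (47.6%, Wilson 95% interval 45.7 to 49.5%). Solitary peaks next to each other share the gap between them, which the interval does not take into account. The same share was not computed for other peaks, so no preference for a side is read from it. The median distance was 117384 nt on the 5′ side and 98235 nt on the 3′ side, with the strand as listed. Solitary peaks followed one another without a cluster between them in 142 runs of 4 or more, which held 665 of them. There were 1502 runs in all, 874 of them of 1 peak. How many long runs the list's own mix would give was not computed. The longest runs had 8 peaks, at chr4:133742858-135607126 and chr13:64317520-70776450 on the minus strand and at chr6:50060407-56782417 on the plus strand.

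The rule did not look at the opposite strand. A peak on it lay within 10 kb of 106 solitary peaks (3.99%, Wilson 95% interval 3.31 to 4.81%) and of 3.48% of the others. Closer in, the solitary share was the higher one, with 24 solitary peaks (0.904%, Wilson 95% interval 0.608 to 1.34%) and 81 others (0.288%) within 1 kb. Farther out it was the lower one, at 15.8% against 22.1% within 50 kb. Peaks of a cluster share their neighbours on the other strand, so shares counted per peak do not compare like units. Of the 24, 12 had a solitary peak as their opposite partner, with both members of such a pair counted. The closest such pair, chosen after its values were seen, was 109 nt apart. It joined 45 nt of the minus strand, chr11:90499346-90499390, at 6.20-fold, with 87 nt of the plus strand, chr11:90499500-90499586, at 4.98-fold. The plus strand carried 51.6% of solitary peaks and 53.1% of the others.

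Every chromosome but Y held solitary peaks, from 62 on X to 215 on chromosome 2, and none of the 12 peaks on Y was solitary. As a share of a chromosome's peaks they ranged from 6.58% on chromosome 15, 6.93% on X and 7.04% on chromosome 11 to 12.2% on chromosome 3, 13.3% on chromosome 12 and 13.9% on chromosome 13. Chromosome 11 contributed 7.76% of all solitary peaks and 9.68% of the others, the largest shortfall, and chromosome 12 contributed 4.41% and 2.71%, the largest surplus. The solitary share was lower where peaks were many, with a Spearman correlation of -0.565 over 20 chromosomes, in which the number of peaks is also the denominator of the share. The rule itself also ties the share to how densely peaks lie, so this correlation is no separate finding. Counted over clusters, the solitary share ran from 35.3% of clusters on chromosome 16 to 48.0% on chromosome 13. Chromosome X changed place, as its 62 solitary peaks were 43.4% of its 143 clusters.

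The difference in shape recurred on every chromosome compared. Solitary peaks had the higher median width and the lower median −log10 p on 20 of 20 chromosomes, with solitary median widths from 51 to 61 nt and others from 26 to 34 nt. Their median log2 fold change was the lower one on 16 of the 20. The share at 8-fold or more was lower on 10 and higher on 10, and it was lower on 14 of 20 with a gap of 5 kb and on 15 of 20 with peaks within 50 nt merged into sites. It was farthest above on chromosome 13, at 38.0% of 108 solitary peaks against 25.6% of the others there, and farthest below on chromosome 10, at 25.2% of 107 against 33.5%.

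**Figure D5:**
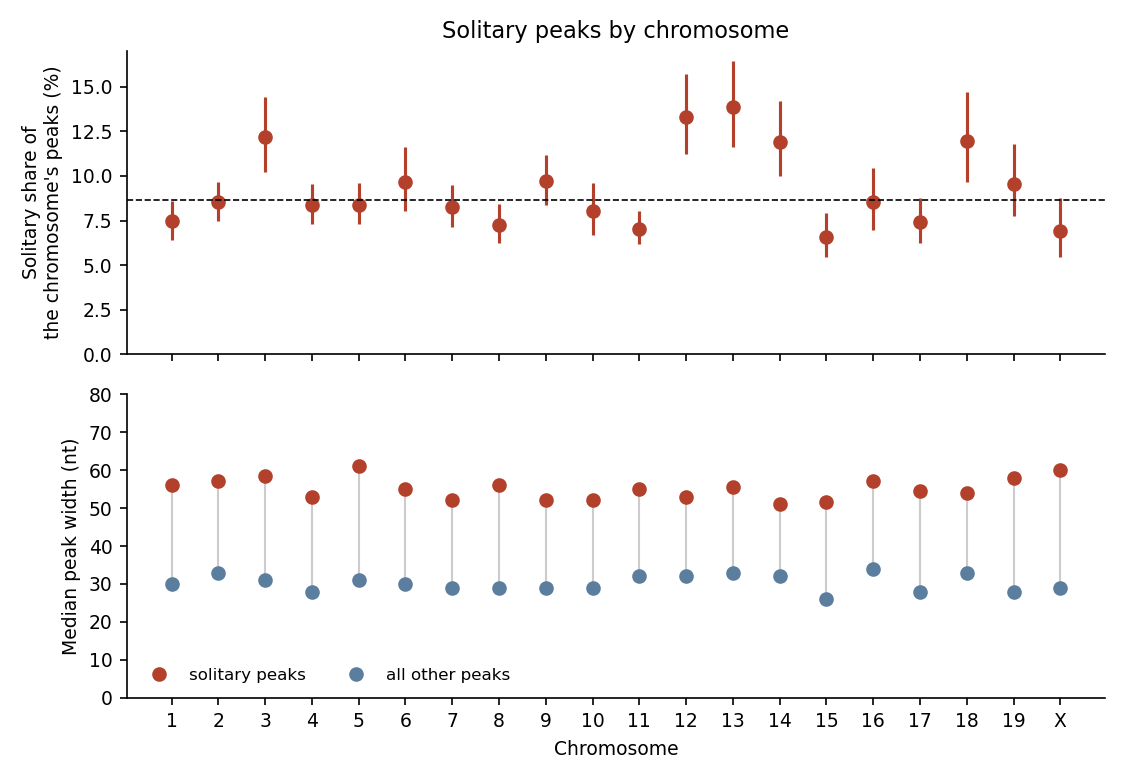
Top, solitary peaks as a share of each chromosome's peaks (y axis, percent) with Wilson 95% intervals and a dashed line at the 8.63% of the whole list. Bottom, median width in nt (y axis) of solitary peaks (red) and all others (blue) on the same chromosomes (x axis). Chromosomes 3, 12, 13, 14 and 18 lie above the line with their intervals, and chromosomes 1, 8, 11 and 15 lie below it with theirs. The solitary median width is the higher one on 20 of 20 chromosomes.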

How the data were processed

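The input was 1 peak list for the whole series, with positions on mm9 and no values per library. The log2 fold change and the −log10 p-value of each peak are as the authors deposited them, per the file headers. Cutadapt 1.18, STAR 2.6.1b and mm9 appear, without their roles, in the submitters' processing notes. Not given in the sources used here are the peak caller, its filters, the test behind p, the groups in the ratio and any pooling of replicates. Start and end were both counted as part of a peak, and whether positions start at 0 or 1 is not stated. The distance between peaks is the next start minus the previous end minus 1, and chromosome ends count as far. Medians, quartiles, shares and Wilson 95% intervals were computed, with no tests. The intervals treat peaks as independent and cover counting error only. A cluster joins peaks within 10 kb on a strand and a site those within 50 nt. Chromosomes needed at least 20 solitary peaks to be compared. The step of the fold changes is the constant near 1 that makes most fold changes of at least 32 whole multiples. Of those 94 fold changes, 77 lay within 0.001 of one. Regions were named by rank: the 10 highest fold changes, the 5 highest −log10 p with peaks at either tied value (400 or 15.7) left out, the 5 most remote, the 5 widest, and 3 on each side of the 10 kb limit. The members, lists and comparisons were chosen with earlier results of these data known. Annotation at hand is on another build, so no gene, exon or sequence was assigned. The rule was tested on simulated data. Python 3.11.15, numpy 2.4.6, pandas 2.3.3, scipy 1.17.1 and matplotlib 3.10.9 were used.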

Additional observations from a re-analysis of the deposited data

How the results depend on the processing

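No paired analysis was possible because the list holds 1 value per peak and none per library. Leaving out a library was not possible either. The number of solitary peaks was 2655 at a gap of 10 kb and 1079 at 50 kb. Median width, 55 nt against 30 nt for the others, was 52 against 30 nt at a gap of 5 kb. It was 58 against 31 nt at 20 kb and 61 against 31 nt at 50 kb. For sites merged within 50 nt it was 59 against 43 nt, a smaller difference. When only peaks past 8-fold were kept before the rule was applied, it was 39 against 25 nt, also a smaller difference. Median −log10 p, 6.95, was 7.10, 6.80, 6.62, 7.41 and 8.03 in the same settings. Median log2 fold change, 2.64, was 2.69 for merged sites, which take the highest of their peaks by construction, and 3.30 among peaks past 8-fold, where values below 3 are removed by construction. In these settings, with strand ignored and without the tied p-values, solitary peaks kept the higher median width, the lower median −log10 p and the lower median fold change. The share at 8-fold or more changed sides against the other peaks: 31.4% against 32.4% became 32.4% against 32.3% at 20 kb and 32.9% against 32.3% at 50 kb, and 4.90% against 3.53% at 16-fold with p at most 1e-05. The share with an opposite-strand peak within 10 kb, 3.99% against 3.48%, became 3.49% against 3.53% at 5 kb, 5.56% against 3.45% at 50 kb and 2.02% against 1.13% among peaks past 8-fold. The cause was not tested. The remaining 24 of 43 alternative values stayed within the 95% interval of the main value, or within 1.5 times it for counts. Depth limits every value by an unknown amount.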
